A study of Homo sapiens with 9 samples.

Results

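The genes described here form the zinc finger cluster of chromosome band 19q13.4, around ZNF331. Members were chosen by name and place, as 37 listed zinc finger symbols of this stretch. No rule on their values was used, but earlier results of these data were known when they were chosen. Of the 37, 29 had a row among the 21003 genes of the deposited counts, in which 445 genes have a ZNF name. The other 8 listed genes (ZNF320, ZNF415, ZNF525, ZNF528, ZNF534, ZNF610, ZNF677 and ZNF880) are not analysed here. In GENCODE 44, on hg38, the 29 members lie between positions 51804816 and 53580269 of chromosome 19, a span of 1.78 Mb.

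The study compared HAP1 cells that lack MATR3, which encodes matrin 3, a nuclear protein that binds RNA and DNA, with wild-type HAP1 cells. HAP1 is a near-haploid adherent line derived from the chronic myeloid leukaemia line KBM-7. Total RNA depleted of ribosomal RNA was sequenced in 9 libraries: MATR3 knockout (KO) clone 1 (n = 2), KO clone 5 (n = 2), wild-type (WT) clone 1 (n = 3) and WT clone 7 (n = 2). All 4 groups are HAP1 cells grown in the same medium with no further treatment in the labels. Each KO group is 1 clone bought from a supplier, and the WT groups are 2 supply batches of control cells, labelled as clones, so that WT clone and WT batch cannot be told apart. The labels do not say whether the libraries of a clone are separate cultures. The p-values of KO against WT take the 9 libraries as separate units, though they come from 2 KO and 2 WT groups. Their spread mixes differences between clones with differences between libraries of a clone, and the latter may be technical only. Comparisons that single out a clone rest on the spread between libraries of a clone alone.

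Most proteins of this cluster belong to the KRAB zinc finger family. Their tandem zinc fingers read DNA sequence, often in transposable elements. The KRAB domain recruits the co-repressor TRIM28 (also named KAP1), which brings in the histone methyltransferase SETDB1 and heterochromatin proteins. The family is concentrated in clusters on chromosome 19 that grew by repeated gene duplication, so neighbours often resemble each other in sequence. From coding sequences of GENCODE 44, the 29 encoded proteins were 463 to 970 residues long and held 7 to 26 fingers of the C2H2 kind, with a median of 14. ZNF845 had the most fingers, at 26, followed by ZNF836 with 24 and ZNF808 with 23. ZNF577, ZNF701 and ZNF766 had the fewest, at 7.

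Library totals ran from 16103754 to 34407309 counts. MATR3 stood at 40.8 and 44.4 CPM (counts per 1000000 after TMM scaling) in KO clone 1 and at 49.3 and 43.2 CPM in KO clone 5, against 224, 211 and 214 CPM in WT clone 1 and 224 and 220 CPM in WT clone 7. Every library thus matched its genotype label. Of 10 haematopoietic markers TAL1 and LYL1 had a row, and the defining markers PTPRC, SPI1, GATA1, KLF1, ITGAM, CD33, CD34 and MPO had none. The summed haematopoietic level was 40.1 to 48.1 CPM in KO and 32.3 to 41.8 CPM in WT libraries. TAL1 made up nearly all of it, at 43.2 ± 3.5 CPM in KO and 38.6 ± 4.2 CPM in WT libraries (edgeR adjusted p = 0.22). LYL1 went the other way, at 0.633 ± 0.27 CPM in KO and 1.06 ± 0.12 CPM in WT libraries (edgeR adjusted p = 0.096). All 4 epithelial markers (KRT8, KRT18, EPCAM and CDH1) had a row and together stood at 114 to 131 CPM in KO against 38.7 to 67.7 CPM in WT libraries. KRT8 and KRT18 made up nearly all of that sum, while EPCAM stood at 0.117 ± 0.079 CPM in KO and 0.567 ± 0.39 CPM in WT libraries (SD, n = 4 and 5), lower in every KO library than in any WT library. The 4 mesenchymal markers (VIM, COL1A1, PDGFRA and CDH2) together stood at 340 to 523 CPM in KO against 530 to 785 CPM in WT libraries. VIM made up most of that sum, and COL1A1 alone of the 4 was higher in KO, at 31.1 ± 3.1 CPM in KO and 16.8 ± 3.6 CPM in WT libraries (SD, n = 4 and 5; log2 difference 0.88, edgeR adjusted p = 0.00074). The part of these shifts in the results below was not tested. One library stood apart: repeats took 14.03% of the counts of WT clone 1 replicate 1 and 7.9% to 11.23% of those of the other 8 libraries.

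The first comparison asked which members differed between KO and WT cells. ZNF331 had the smallest p among the members, and 9 others were also lower in KO cells: ZNF577, ZNF649, ZNF614, ZNF480, ZNF808, ZNF701, ZNF83, ZNF611 and ZNF28. No member was called higher by edgeR or in the authors' deposited table. A call means an adjusted p below 0.05 in edgeR's quasi-likelihood F test, with Benjamini-Hochberg adjustment over all 18829 genes and repeat subfamilies tested. Of the 29 members, 26 passed the filter on low counts and were tested. The 10 called lower are 38.5% of those 26, while 11.9% of all 17777 genes tested were called lower and 11.3% higher. The other 16 were not called, 2 of them higher at unadjusted p below 0.05. The median log2 difference was -0.09 over the 26 members, which ran from -1.17 to 0.74, and 0.00 over all genes tested. In these bulk libraries, fewer cells with a transcript and less of it per cell cannot be told apart.

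**Figure D1:**
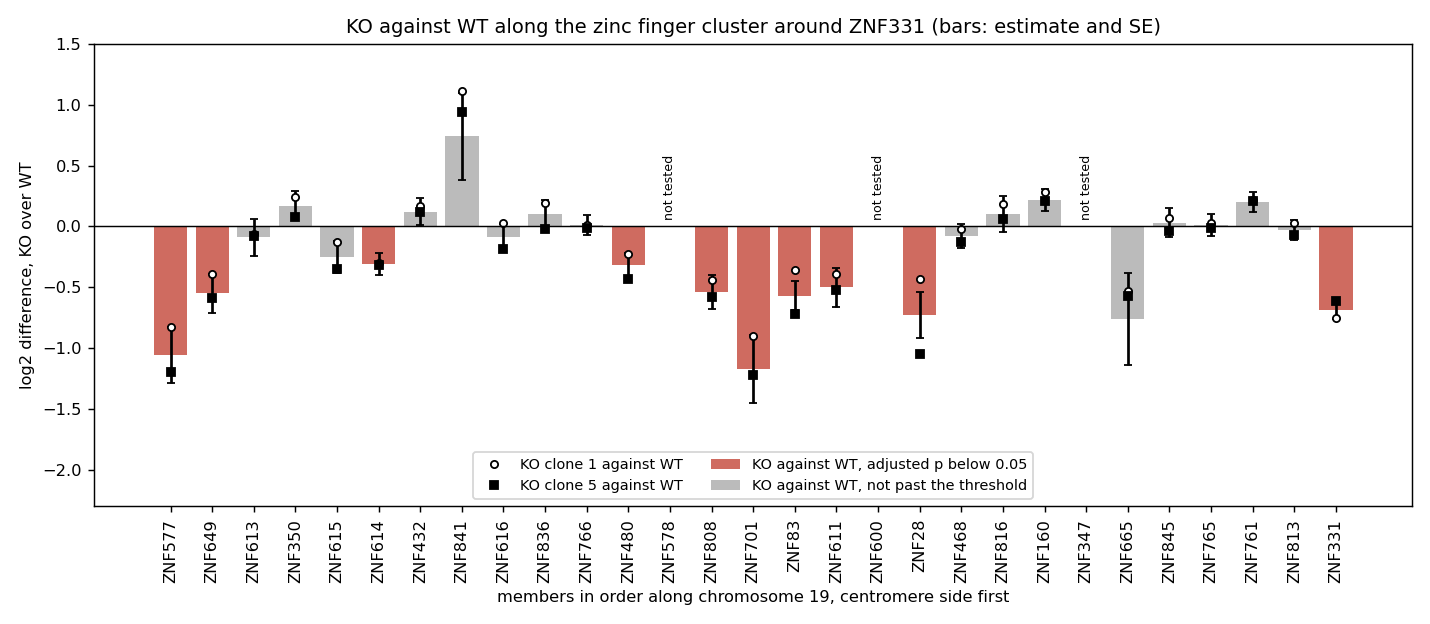
The log2 difference of KO over WT for each member is drawn in order along chromosome 19, as a bar with its SE, red where called and grey where not, with open circles for KO clone 1 against WT and black squares for KO clone 5 against WT. The 6 tested members between ZNF480 and ZNF28 all have red bars, between -1.17 and -0.32, and ZNF841 has the highest grey bar, at 0.74.

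ZNF331 is an imprinted gene whose locus is rearranged in follicular thyroid adenomas. It stood at 18.9 and 18.4 CPM in KO clone 1 and at 21.6 and 19.6 CPM in KO clone 5, against 35.2, 31.8 and 32.2 CPM in WT clone 1 and 29.1 and 30.4 CPM in WT clone 7. The highest KO library lay well below the lowest WT library. The level averaged 19.6 ± 1.4 CPM in KO cells and 31.7 ± 2.3 CPM in WT cells (SD, n = 4 and 5 libraries), which is 1.62-fold lower in KO (log2 difference -0.69, SE 0.07, edgeR adjusted p = 3.4e-05). It was the one member called lower under all 22 alternative settings, with log2 differences of -0.76 to -0.61.

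In the RefSeq table of GRCh38.p14, the ZNF331 start examined here lies inside the span of the gene in GENCODE 44, so it is 1 of its starts. The 250 bases before it are shown because ZNF331 had the smallest p of the cluster. They hold a run of 21 bases that occurs at positions 62 and 171 of the window, the longest exact repeat in it, in capitals here (chr19:53520764-53521013, plus strand).
ZNF331: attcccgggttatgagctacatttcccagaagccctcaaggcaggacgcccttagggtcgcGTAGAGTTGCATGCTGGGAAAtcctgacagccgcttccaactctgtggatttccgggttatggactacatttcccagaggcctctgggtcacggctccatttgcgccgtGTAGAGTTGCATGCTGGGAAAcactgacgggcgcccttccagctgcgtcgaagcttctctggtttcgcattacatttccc
Of 24 member windows of the same kind, ZNF615 also had a longest repeat of 21 bases, and the other 22 had repeats of 6 to 18 bases.

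ZNF808, ZNF611 and ZNF649 are KRAB zinc finger genes whose proteins are known to bind transposable elements: MER11 long terminal repeats for ZNF808, SVA elements for ZNF611 and young L1 elements for ZNF649. Loss of ZNF808 causes pancreatic agenesis in humans. ZNF808 stood at 18.1 and 19.2 CPM in KO clone 1 and at 18.9 and 15.1 CPM in KO clone 5, against 36.3, 22.7 and 24.5 CPM in WT clone 1 and 22.5 and 24.3 CPM in WT clone 7. The KO libraries lay below all WT libraries, and WT clone 1 replicate 1 was far above the other 4 WT libraries. The level was 1.45-fold lower in KO (log2 difference -0.54, SE 0.14, edgeR adjusted p = 0.016). Without WT clone 1 replicate 1 the log2 difference was -0.40 (edgeR adjusted p = 0.00503), and without KO clone 5 replicate 2 the call was lost (edgeR adjusted p = 0.0557).

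ZNF611 stood at 16.1 and 17.8 CPM in KO clone 1 and at 16.1 and 14.8 CPM in KO clone 5, against 33.9, 19.2 and 22.5 CPM in WT clone 1 and 20.8 and 18.4 CPM in WT clone 7. The genotypes did not overlap, but the gap was narrow, since 18.4 CPM in 1 WT library stood against 17.8 CPM in 1 KO library. The log2 difference was -0.50 (SE 0.16, edgeR adjusted p = 0.043), and -0.32 without WT clone 1 replicate 1 (edgeR adjusted p = 0.0181). The call was lost without KO clone 1 replicate 1 (edgeR adjusted p = 0.0972) or replicate 2 (0.0633), without KO clone 5 replicate 1 (0.0868) or replicate 2 (0.115), and without WT clone 1 replicate 3 (0.0697). With the replicate number as a block it was lost as well (edgeR adjusted p = 0.0665).

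ZNF649 stood at 9.75 and 9.55 CPM in KO clone 1 and at 8.54 and 8.23 CPM in KO clone 5, against 18.7, 12.9 and 13.4 CPM in WT clone 1 and 11.5 and 9.93 CPM in WT clone 7. Here the lowest WT library was barely above the highest KO library. The log2 difference was -0.55 (SE 0.16, edgeR adjusted p = 0.025). The call was lost without KO clone 5 replicate 1 (edgeR adjusted p = 0.0636) or replicate 2 (0.0754).

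Among the 6 remaining called members, ZNF577 and ZNF701 were the least abundant and had the steepest differences. ZNF577 stood at 2.61 and 1.85 CPM in KO clone 1 and at 1.99 and 1.36 CPM in KO clone 5, against 6.04, 3.92 and 3.87 CPM in WT clone 1 and 3.4 and 3.16 CPM in WT clone 7. Its genotypes did not overlap, and the level was 2.08-fold lower in KO (log2 difference -1.06, SE 0.23, edgeR adjusted p = 0.0057). ZNF701 stood at 1.51 and 1.47 CPM in KO clone 1 and at 1.28 and 1.09 CPM in KO clone 5, against 5.06, 3.35 and 2.72 CPM in WT clone 1 and 2.45 and 1.74 CPM in WT clone 7. Every KO library lay below every WT library, with a wide spread within WT, and the level was 2.26-fold lower in KO (log2 difference -1.17, SE 0.28, edgeR adjusted p = 0.0096). Leaving out any 1 library lost neither call.

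ZNF83 stood at 16.7 and 18.6 CPM in KO clone 1 and at 13.2 and 14.4 CPM in KO clone 5, against 26.3, 25.2 and 25.5 CPM in WT clone 1 and 20.5 and 19.4 CPM in WT clone 7. Both genotypes split by clone, with KO clone 5 below KO clone 1 and WT clone 7 below WT clone 1, and still did not overlap (log2 difference -0.57, SE 0.12, edgeR adjusted p = 0.0055). ZNF28 stood at 9.58 and 10.4 CPM in KO clone 1 and at 6.45 and 6.65 CPM in KO clone 5, against 19.6, 12 and 12.4 CPM in WT clone 1 and 13.6 and 11.6 CPM in WT clone 7. KO clone 5 was the lowest clone and the genotypes did not overlap (log2 difference -0.73, SE 0.19, edgeR adjusted p = 0.015). Without KO clone 5 replicate 2 the ZNF28 call was lost (edgeR adjusted p = 0.0542).

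ZNF480 had the highest level of all members, and with ZNF614 the smallest differences among those called. ZNF480 stood at 29.1 and 33.3 CPM in KO clone 1 and at 28.3 and 26.1 CPM in KO clone 5, against 41.5, 30.5 and 33.8 CPM in WT clone 1 and 40.0 and 37.0 CPM in WT clone 7. It was the one called member whose genotypes overlapped, since KO clone 1 replicate 2 lay above WT clone 1 replicate 2 (log2 difference -0.32, SE 0.10, edgeR adjusted p = 0.037). ZNF614 stood at 17.4 and 18.5 CPM in KO clone 1 and at 18.0 and 17.6 CPM in KO clone 5, against 26.8, 18.9 and 20.3 CPM in WT clone 1 and 22.2 and 22.8 CPM in WT clone 7. The KO libraries lay close together just under the lowest WT library (log2 difference -0.31, SE 0.09, edgeR adjusted p = 0.036).

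Both of these calls depended on single libraries. That of ZNF480 was lost without KO clone 1 replicate 1 (edgeR adjusted p = 0.0866), without KO clone 5 replicate 1 (0.0899) or 2 (0.113), without WT clone 1 replicate 1 (0.0612), and without WT clone 7 replicate 1 (0.0801) or 2 (0.0623). That of ZNF614 was lost without KO clone 1 replicate 1 (edgeR adjusted p = 0.0927) or 2 (0.064), without KO clone 5 replicate 1 (0.0691) or 2 (0.0864), and without WT clone 7 replicate 1 (0.06) or 2 (0.066).

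**Figure D2:**
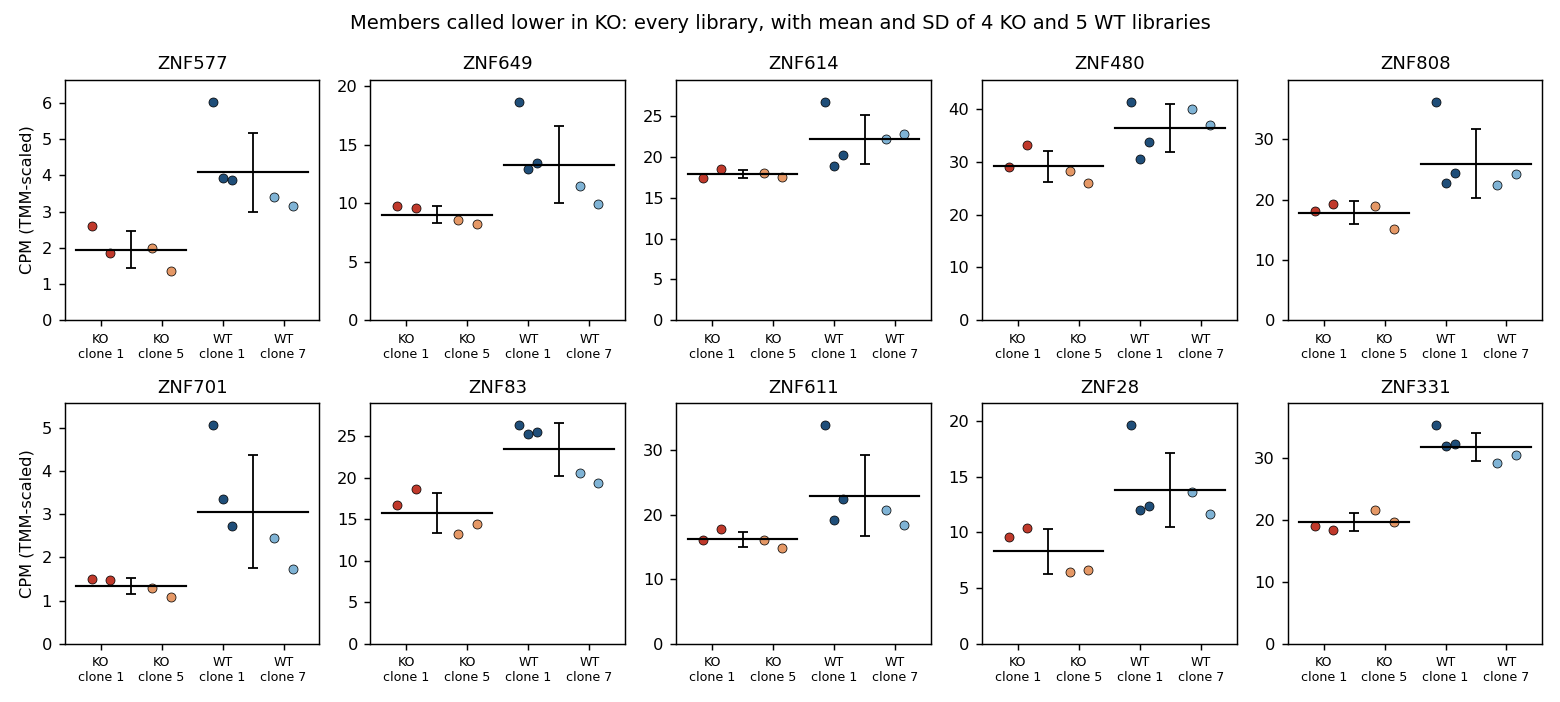
CPM after TMM scaling of each of the 10 called members is plotted in every library by clone, KO on the left and WT on the right, with a line for the genotype mean and a bar for its SD. In all 10 panels WT clone 1 replicate 1, the first dark blue point, is the highest WT library, and KO points lie below all WT points except in the ZNF480 panel.

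In 9 of the 26 members, all of them called, every KO library lay below every WT library, as in 11.9% of all tested genes. In 1 member, ZNF160, every KO library lay above every WT library, by a narrow margin, as in 11.5% of all tested genes. ZNF160 is a KRAB zinc finger gene known as a repressor of the receptor gene TLR4 in gut epithelium. It stood at 18.8 and 19.5 CPM in KO clone 1 and at 18.4 and 18.1 CPM in KO clone 5, against 17.6, 15.4 and 18.1 CPM in WT clone 1 and 15.5 and 13.5 CPM in WT clone 7 (log2 difference 0.22, SE 0.09, edgeR adjusted p = 0.097). That was the smallest adjusted p among the 16 members not called, whose log2 differences ran from -0.76 for ZNF665 to 0.74 for ZNF841. For ZNF665 the value was -0.38 without WT clone 1 replicate 1 (edgeR adjusted p = 0.364) and 0.03 without WT clone 1 (0.963). ZNF350, which encodes the repressor ZBRK1, a partner of BRCA1, averaged 5.47 ± 0.36 CPM in KO and 4.88 ± 0.65 CPM in WT libraries (SD, n = 4 and 5; log2 difference 0.17, SE 0.12, edgeR adjusted p = 0.38). The log2 differences were 0.20 for ZNF761, 0.12 for ZNF432, and 0.10 for both ZNF836 and ZNF816. They were 0.03 for ZNF845, 0.01 for both ZNF766 and ZNF765, -0.03 for ZNF813, -0.08 for ZNF468, -0.09 for both ZNF616 and ZNF613, and -0.25 for ZNF615.

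ZNF841 had a wider gap between the WT clones, in its point value, than any called member. It stood at 7.37 and 7.64 CPM in KO clone 1 and at 7.16 and 6.22 CPM in KO clone 5, against 9.56, 3.68 and 4.08 CPM in WT clone 1 and 2.08 and 2.30 CPM in WT clone 7. WT clone 1 replicate 1 was above all KO libraries, and the other 4 WT libraries were below them. The log2 difference was 0.74 (SE 0.36, edgeR adjusted p = 0.17). Without WT clone 1 replicate 1 it was 1.21 (SE 0.20, edgeR adjusted p = 0.000903), a call in the higher direction. ZNF841 and ZNF432 share 199 bases of exon on the same strand, where reads cannot be assigned between them.

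The 3 members that did not pass the filter on low counts, ZNF578, ZNF600 and ZNF347, were the members with the fewest counts. ZNF347 had 2 and 0 counts in KO clone 1 and 0 and 1 in KO clone 5, against 100, 26 and 47 counts in WT clone 1 and 5 and 3 in WT clone 7. Nearly all of its reads came from WT clone 1. The 3 KO counts and 181 WT counts gave a WT over KO ratio of 47.0, adjusted for depth, with an exact 95% counting interval of 15.8 to 230.0. The ratio of WT clone 1 over WT clone 7 was 14.1 (7.01 to 33.2), and that of WT clone 7 over KO was 5.25 (1.26 to 30.7).

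ZNF578 had 0 and 1 counts in KO clone 1 and 0 and 0 in KO clone 5, against 49, 19 and 42 counts in WT clone 1 and 1 and 2 in WT clone 7. Here too WT clone 1 stood apart, while WT clone 7 was close to the KO clones. The ratio of WT over KO was 87.9 (15.5 to 3500) from 1 KO count and 113 WT counts, that of WT clone 1 over WT clone 7 was 24.0 (7.99 to 118), and that of WT clone 7 over KO was 5.91 (0.474 to 310). ZNF600 had 3 and 3 counts in KO clone 1 and 4 and 1 in KO clone 5, against 72, 27 and 45 counts in WT clone 1 and 7 and 3 in WT clone 7. Its ratio of WT over KO was 10.9 (5.92 to 22.3), that of WT clone 1 over WT clone 7 was 9.41 (4.97 to 20.0), and that of WT clone 7 over KO was 1.79 (0.682 to 4.64).

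These intervals cover counting error only. The WT clone 7 over KO intervals of ZNF578 and ZNF600 include 1, so a difference between WT clone 7 and KO was not detectable at this depth. When no filter was applied, all 3 were called lower, with log2 differences of -5.5 for ZNF347 (edgeR adjusted p = 0.0142), -5.99 for ZNF578 (0.0123) and -3.5 for ZNF600 (0.0206). None of the 3 was called without KO clone 1 replicate 2 (edgeR adjusted p = 0.0553 to 0.0709), nor without KO clone 1 or without KO clone 5 (0.107 to 0.164). ZNF600 was also not called without KO clone 5 replicate 2 (edgeR adjusted p = 0.0619) or with the libraries of each clone summed (0.122). ZNF347 and ZNF578 were not tested with the libraries summed. The authors' deposited table lists -5.55 for ZNF347 (adjusted p = 0.0015), -6.26 for ZNF578 (0.0015) and -3.58 for ZNF600 (0.0034). The authors' deposited table has 13 of the 29 members lower at adjusted p below 0.05, the 10 called here and these 3, and none higher, where 11.4% of its genes are lower.

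The 250 bases before the RefSeq starts of ZNF347 and ZNF578 are shown because their reads differed between clones of 1 genotype. CG dinucleotides, where DNA can be methylated, are in capitals. The window of ZNF347 (chr19:53159054-53159303, minus strand) holds 19 of them and that of ZNF578 (chr19:52453303-52453552, plus strand) holds 16. DNA methylation was not measured in these libraries.
ZNF347: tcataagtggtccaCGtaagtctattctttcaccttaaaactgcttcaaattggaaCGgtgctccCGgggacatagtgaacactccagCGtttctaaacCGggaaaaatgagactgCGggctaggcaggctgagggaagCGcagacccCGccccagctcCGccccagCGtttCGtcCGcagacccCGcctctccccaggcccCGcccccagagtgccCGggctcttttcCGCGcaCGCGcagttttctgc
ZNF578: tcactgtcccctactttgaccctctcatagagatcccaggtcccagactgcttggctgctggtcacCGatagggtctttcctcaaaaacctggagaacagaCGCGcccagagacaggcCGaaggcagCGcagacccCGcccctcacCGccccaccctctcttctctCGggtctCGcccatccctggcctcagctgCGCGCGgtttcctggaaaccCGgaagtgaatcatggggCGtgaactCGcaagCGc

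**Figure D3:**
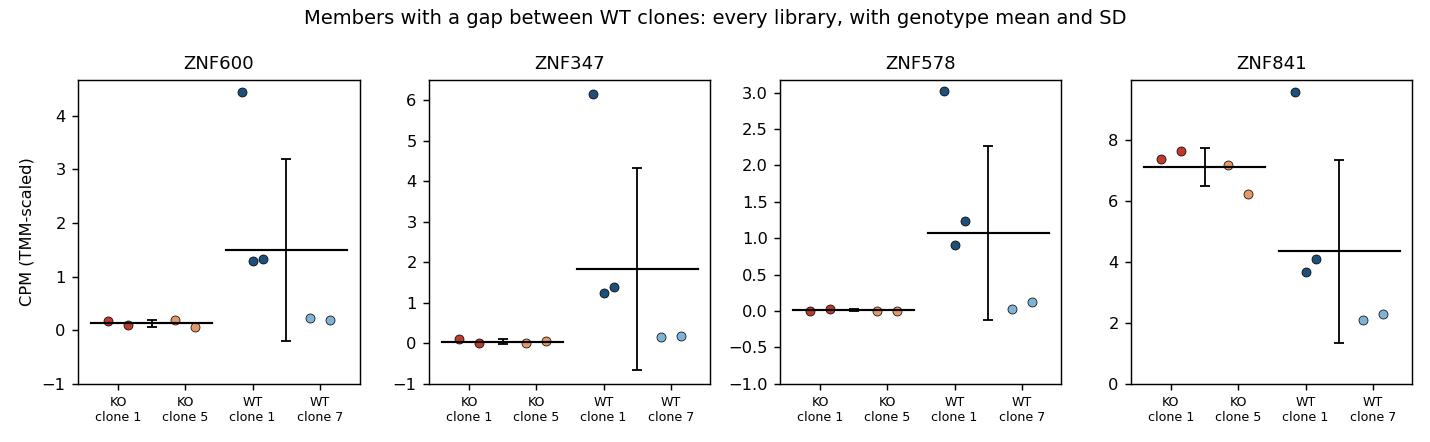
CPM after TMM scaling of ZNF600, ZNF347, ZNF578 and ZNF841, chosen after their values were seen, is plotted in every library by clone, KO on the left and WT on the right, with a line for the genotype mean and a bar for its SD. The WT clone 7 points of ZNF600, ZNF347 and ZNF578 lie at 0.0331 to 0.231 CPM, near the KO points and below all WT clone 1 points.

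WT clone 1 replicate 1 held the highest WT value of 23 of the 26 tested members, of all 10 called ones and of 26 of all 29. Among all tested genes it held the highest WT value in 24.0%. Its median log2 difference from the mean of the other 4 WT libraries was 0.35 over tested members and -0.04 over tested genes. Summed over the 29 members, CPM were 321 and 338 in KO clone 1 and 316 and 290 in KO clone 5, against 467, 347 and 364 in WT clone 1 and 357 and 338 in WT clone 7. The other 4 WT sums, 338 to 364 CPM, began where the KO sums of 290 to 338 CPM ended. The 10 called members alone summed to 125 to 149 CPM in KO and to 179 to 249 CPM in WT libraries, and the 16 members not called to 165 to 188 CPM in KO and 159 to 204 CPM in WT libraries. Without WT clone 1 replicate 1, 9 of 26 members were called lower (12.1% of genes), ZNF480 being lost, and ZNF841 was called higher (11.3% of genes).

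The next comparisons took each KO clone against WT in a fit with 4 groups, in which WT is the mean of its 2 clones. The comparisons share the WT libraries, so their values are given side by side and not as support for each other. KO clone 1 had 4 of 26 members lower (ZNF331, ZNF577, ZNF701 and ZNF83) and 1 higher (ZNF841), where 10.2% of genes were lower and 9.86% higher. KO clone 5 had 8 members lower (ZNF331, ZNF577, ZNF701, ZNF83, ZNF28, ZNF480, ZNF649 and ZNF808) and none higher, where 9.93% of genes were lower and 9.44% higher. The median member stood at -0.04 in KO clone 1 and -0.16 in KO clone 5 on the log2 scale. ZNF331 stood at -0.75 (SE 0.08) in KO clone 1 and at -0.61 (SE 0.08) in KO clone 5, and ZNF83 at -0.36 (SE 0.08) in KO clone 1 and at -0.72 (SE 0.08) in KO clone 5. ZNF28 stood at -0.43 (SE 0.18) in KO clone 1 and at -1.05 (SE 0.20) in KO clone 5. ZNF841 stood at 1.11 (SE 0.31, edgeR adjusted p = 0.03) in KO clone 1 and at 0.94 (SE 0.32, edgeR adjusted p = 0.066) in KO clone 5. ZNF614 and ZNF611 were called in neither clone alone, and all 10 members called in KO against WT had negative values in both clones.

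The difference between the KO clones was itself tested. KO clone 5 against KO clone 1 gave no called member (edgeR, 2 at unadjusted p below 0.05), where 0.692% of genes were called in either direction. The smallest adjusted p was 0.22, for ZNF83 (log2 difference -0.36, SE 0.10), and ZNF28 had the widest gap (-0.62, SE 0.23, edgeR adjusted p = 0.42). Values were below 0 for 25 of the 26 members, with a median of -0.13 and -0.01 over all genes, and ZNF331 was the exception at 0.14 (SE 0.09). The median of the members varied between libraries of a genotype with an SD of 0.14 on the log2 scale. That SD pools KO and WT and includes differences between clones, so it does not measure the spread within a KO clone. The members of 1 library share its scaling, so the values below 0 are not 25 separate signs. Without WT clone 1 replicate 1, 1 member was called, ZNF28.

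Clones of 1 genotype gave the background against which clone differences can be read. WT clone 7 against WT clone 1 gave no called member (edgeR, 5 at unadjusted p below 0.05), where 0.613% of genes were called in either direction. The smallest adjusted p was 0.076, again for ZNF83 (log2 difference -0.36, SE 0.09). ZNF841 had a log2 difference of -1.37 (SE 0.38, edgeR adjusted p = 0.098), ZNF665 of -1.15 (SE 0.42, 0.17) and ZNF701 of -0.77 (SE 0.28, 0.17). The median was -0.18 over the members, 20 of which lay below 0, and 0.02 over all genes. With the replicate number as a block, ZNF665, ZNF701 and ZNF841 were called lower in WT clone 7, and without WT clone 1 replicate 1, ZNF83 and ZNF841 were.

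The members called lower were unevenly placed along the cluster. In order from the centromere side, ZNF577 and ZNF649 were called lower, ZNF613, ZNF350 and ZNF615 were not, and ZNF614 was. ZNF432, ZNF841, ZNF616, ZNF836 and ZNF766 were not called. A stretch of 8 members followed, from ZNF480 to ZNF28 (chr19:52297169-52857600), in which all 6 tested ones were lower, with log2 differences of -1.17 to -0.32 and a median of -0.55, and the other 2 were ZNF578 and ZNF600. The next tested members, ZNF468, ZNF816, ZNF160, ZNF665, ZNF845, ZNF765, ZNF761 and ZNF813, were not called, and ZNF331 at the far end was. The order was examined after the calls were known and was not tested. Several members share exon bases on 1 strand: 229 bases for ZNF808 and ZNF701, 118 for ZNF577 and ZNF649, and 29 for ZNF28 and ZNF468.

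Other genes inside the same span were compared next, to set the members beside their neighbours. Of 22 other rows placed in the span, 15 were tested, 2 were lower (13.3%, against 11.9% of all tested genes) and none higher by edgeR (1 higher at unadjusted p below 0.05). Of the 22, the authors' deposited table has 3 lower and 0 higher. ENSG00000269825 averaged 9.68 ± 1.5 CPM in KO and 17.8 ± 4.8 CPM in WT libraries (SD, n = 4 and 5; log2 difference -0.87, edgeR adjusted p = 0.0041) and shares 337 exon bases with ZNF83 on the same strand. ENSG00000283236 averaged 0.640 ± 0.17 CPM in KO and 2.0 ± 1.1 CPM in WT libraries (SD, n = 4 and 5; log2 difference -1.59, edgeR adjusted p = 0.0085) and shares 176 with ZNF577. These are therefore not independent of their partners among the members. PPP2R1A, the scaffold subunit of protein phosphatase PP2A, lies between ZNF836 and ZNF766 and stood at 324 ± 21 CPM in KO and 328 ± 20 CPM in WT libraries (SD, n = 4 and 5; log2 difference -0.02, edgeR adjusted p = 0.90).

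Genes on either side of the span were counted in the same way. In the 2 Mb before the span, 0 of 46 tested genes were lower by edgeR (3 at unadjusted p below 0.05, and 0 in the authors' deposited table) and 10 higher, with a median log2 difference of 0.16. In the 2 Mb after it, 1 of 46 was lower and 11 were higher, with a median of 0.15. Of all genes tested, 11.9% were lower and 11.3% higher. Of 170 other ZNF genes of chromosome 19, inside the span or not, 38 were lower (22.4%) and 5 higher (2.94%), and of 233 ZNF genes on other chromosomes 50 were lower (21.5%) and 21 higher (9.01%). Of 1038 genes of chromosome 19 without a ZNF name, 43 were lower (4.14%) and 159 higher (15.3%). The medians were -0.19, -0.04 and 0.07 in these 3 groups. None of these counts was tested against another, and members share a locus and sequence, so the counts are descriptions.

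**Figure D4:**
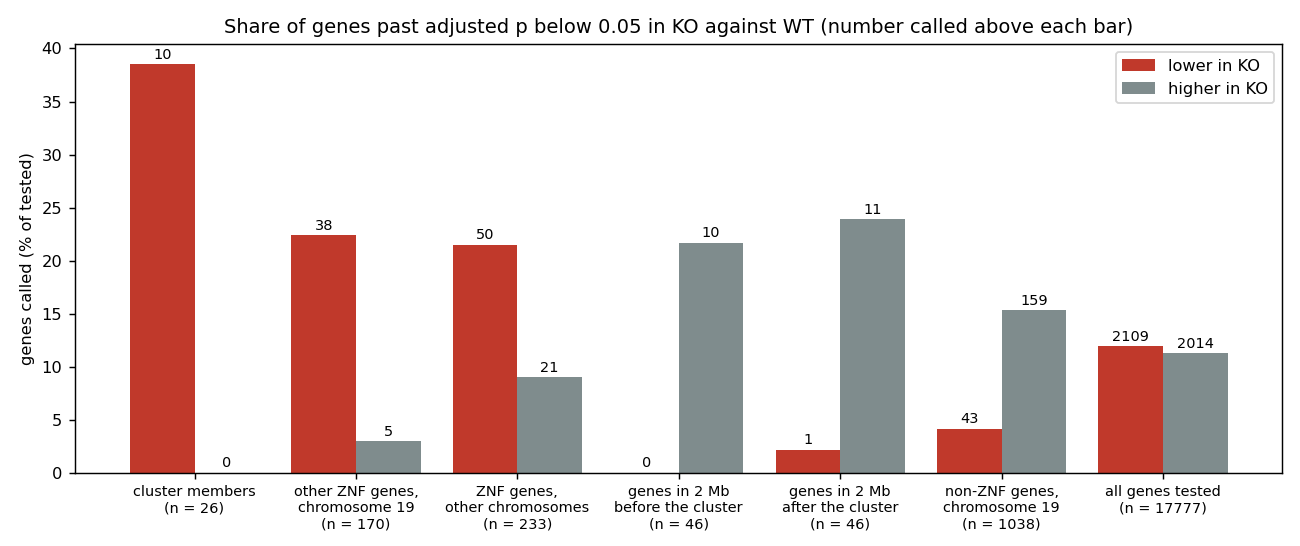
Bars give the percentage of tested genes called lower (red) and higher (grey) in KO against WT, with the number called above each bar and the number tested under each name. The cluster members have 10 of 26 lower and 0 higher, whereas the 2 Mb on either side have 0 and 1 lower, and 10 and 11 higher. Other ZNF genes of chromosome 19 have 38 of 170 lower and 5 higher. ZNF genes on other chromosomes have 50 of 233 lower and 21 higher, and all genes tested 11.9% lower and 11.3% higher.

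The partners through which KRAB zinc finger proteins act were taken from a list of 25 cofactors, all of them tested. Of these, 4 were lower (16%, against 11.9% of all tested genes) and 1 higher (4.0%, against 11.3%). ATF7IP, which stabilises SETDB1, stood at 55.7 and 59.8 CPM in KO clone 1 and at 61.5 and 55.0 CPM in KO clone 5, against 84.0, 93.0 and 95.5 CPM in WT clone 1 and 90.9 and 89.4 CPM in WT clone 7 (log2 difference -0.64, SE 0.06, edgeR adjusted p = 9.0e-06). The genotypes did not overlap. HELLS, a chromatin remodeller, was lower (-0.59, edgeR adjusted p = 0.0022), as were DNMT1, the maintenance DNA methyltransferase (-0.24, 0.0077), and ATF7IP2, a relative of ATF7IP (-0.48, 0.04). MPHOSPH8, a subunit of the HUSH silencing complex, was higher (0.23, edgeR adjusted p = 0.018). TRIM28 averaged 693 ± 41 CPM in KO and 701 ± 42 CPM in WT libraries (SD, n = 4 and 5; log2 difference -0.02, edgeR adjusted p = 0.89), and SETDB1 52.9 ± 1.2 CPM in KO and 57.5 ± 6.8 CPM in WT libraries (-0.12, edgeR adjusted p = 0.32).

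The repeat families bound by ZNF808, ZNF611 and ZNF649 were counted in the same libraries. No subfamily among 5 of the MER11 group, 6 SVA and 8 L1PA was called in either direction in KO against WT by edgeR or in the authors' deposited table, and none passed an unadjusted p of 0.05, where 2.09% of 1052 tested repeat subfamilies were lower and 1.52% higher. MER11A averaged 18.9 ± 1.8 CPM in KO and 23.4 ± 7.6 CPM in WT libraries, SVA_D 164 ± 18 CPM in KO and 181 ± 40 CPM in WT libraries, and L1PA4 372 ± 57 CPM in KO and 446 ± 120 CPM in WT libraries (SD, n = 4 and 5). The median log2 differences of KO against WT were -0.23, 0.01 and -0.22 for MER11, SVA and L1PA. The spread within WT was larger than that within KO in each of these 3. Between the WT clones, SVA_A, SVA_B, SVA_C and HERVK11-int, the internal part that goes with MER11, were called lower in WT clone 7 than in WT clone 1, where 2.57% of repeat subfamilies were lower and none higher. HERVK11-int was also lower in KO clone 1 against WT, at 6.04 and 5.97 CPM in KO clone 1, against 22.2, 12.9 and 16.1 CPM in WT clone 1 and 8.4 and 6.58 CPM in WT clone 7 (log2 difference -0.92, SE 0.20, edgeR adjusted p = 0.0094). L1PA8A was lower there too (-0.50, SE 0.15, edgeR adjusted p = 0.041), the only other subfamily of the 19 to be called in that contrast, where 3.99% of repeat subfamilies were lower and 1.52% higher. In KO clone 5 against WT none of the 19 was called by edgeR (4 higher and 0 lower at unadjusted p below 0.05), where 1.14% were lower and 3.9% higher, and HERVK11-int had a log2 difference of -0.09 (SE 0.19, edgeR adjusted p = 0.80). At unadjusted p below 0.05, 8 of the 19 were lower and 0 higher in KO clone 1 against WT. In KO clone 5 against KO clone 1, 0 were lower and 9 higher, with 0 called. Between the WT clones, 18 were lower in WT clone 7 and 0 higher.

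Levels of the members relative to each other were compared per kilobase of annotated exon. ZNF480 was highest, at 6.03 ± 0.62 CPM per kb in KO and 7.54 ± 0.92 in WT libraries (SD, n = 4 and 5), followed in WT by ZNF808, ZNF616, ZNF614 and ZNF331. The 4 that followed ZNF480 stood at 3.65 to 5.2 CPM per kb in WT, with SDs of 0.26 to 1.2 that cover the gaps between neighbours in this order. The lowest tested members in WT were ZNF665 at 0.117 ± 0.028 CPM per kb in KO and 0.201 ± 0.12 in WT libraries, ZNF577 at 0.166 ± 0.044 in KO and 0.348 ± 0.097 in WT libraries, and ZNF701 at 0.213 ± 0.031 in KO and 0.486 ± 0.2 in WT libraries. Called members thus lay at both ends of the range of levels. The median number of zinc fingers was 11 in the proteins of called members and 17 in those of members not called, as a description with no test.

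Starts of 24 of the 29 members were found in the RefSeq promoter table of GRCh38.p14, which holds 35116 windows of 300 bases. ZNF28, ZNF480, ZNF600, ZNF649 and ZNF665 had no entry. The member windows held a median of 25 CG dinucleotides against 14 in all windows, and a GC content of 63.3% against 58.7%. The GC box GGGCGG, on either strand, occurred in 19 of 24 member windows and in 45.0% of all windows. CCAAT occurred in 6 members and 34.6% of all windows, CACGTG in 1 and 7.26%, TATAAA in 0 and 11.5%, and ATGGCGGC in 3 (ZNF577, ZNF614 and ZNF615) and 3.0%. The 7 called members with an entry had a median of 26 CG dinucleotides, the 15 not called 25, and the 2 not tested 24.

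The windows of the 250 bases before each start were also aligned in 276 pairs, with a median identity of 48.9% and a range of 40.8% to 86.0%. The closest pair was ZNF701 and ZNF845, shown because ZNF701 was called lower and ZNF845, at a log2 difference of 0.03, was not. Their windows (chr19:52570037-52570286, plus strand, and chr19:53333499-53333748, plus strand) line up without a gap and differ at 35 of 250 positions, in capitals.
ZNF701: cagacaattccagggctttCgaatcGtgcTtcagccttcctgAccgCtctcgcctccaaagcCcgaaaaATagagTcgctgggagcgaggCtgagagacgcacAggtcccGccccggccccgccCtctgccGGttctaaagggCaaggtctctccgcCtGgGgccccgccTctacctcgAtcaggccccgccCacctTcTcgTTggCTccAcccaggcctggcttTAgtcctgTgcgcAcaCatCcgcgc
ZNF845: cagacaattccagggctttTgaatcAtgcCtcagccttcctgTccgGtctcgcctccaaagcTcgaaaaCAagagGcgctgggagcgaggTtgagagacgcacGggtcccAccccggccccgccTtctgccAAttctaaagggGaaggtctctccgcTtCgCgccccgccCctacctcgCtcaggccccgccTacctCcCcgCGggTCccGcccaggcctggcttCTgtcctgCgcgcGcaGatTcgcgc
ZNF845 stood at 10.6 and 12.5 CPM in KO clone 1 and at 10.5 and 11 CPM in KO clone 5, against 12.1, 8.32 and 10.3 CPM in WT clone 1 and 11.8 and 12.2 CPM in WT clone 7, with wide overlap. Of ZNF701 and ZNF845 only the first was called, as of ZNF83 (called) and ZNF765 (not called), whose windows were 82.3% identical. The window closest to that of ZNF611 (called) was that of ZNF845 (not called), at 82.7% identity. Pairs about as close also shared a state. ZNF611 was called lower, as were ZNF808 (81.8% identical to it) and ZNF701 (80.4%). ZNF845 was not called, nor were ZNF761 and ZNF765 (each 83.4% identical to it). A difference between the genes of a pair, and any part of upstream sequence in the calls, was not tested.

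How far the number of called members moved with the processing is shown beside the share of all genes. Without KO clone 5, ZNF331 alone was called lower of 29 tested members (7.5% of genes), and without KO clone 1 these were ZNF28, ZNF331, ZNF577 and ZNF83 (6.37% of genes). Without WT clone 1 they were ZNF331, ZNF480, ZNF614 and ZNF808 of 26 (10.8% of genes), with ZNF160 and ZNF841 higher (10.3% of genes). When the libraries of each clone were summed, leaving 2 KO against 2 WT samples, ZNF331 alone was lower of 27 (4.17% of genes).

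**Figure D5:**
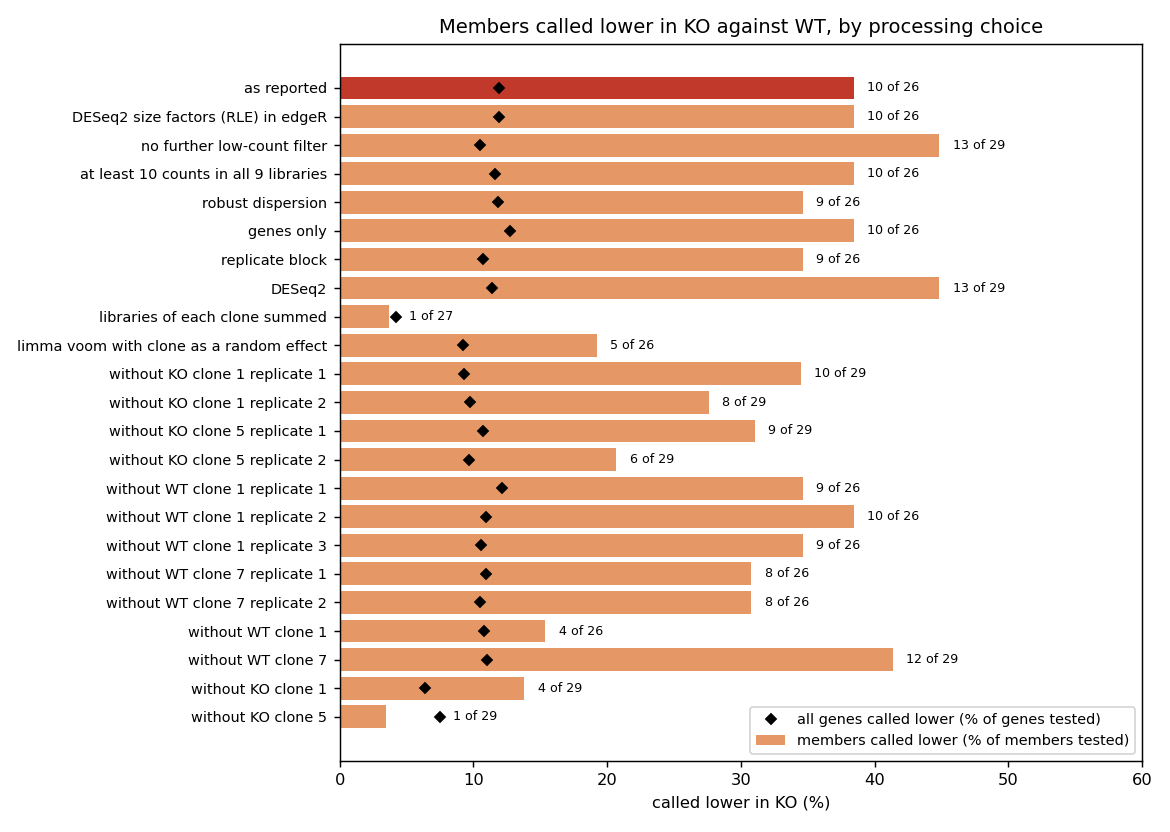
Bars give the percentage of tested members called lower in KO against WT under each processing choice, with the counts beside them, and diamonds the percentage of all tested genes called lower under the same choice. The bar as reported stands at 38.5% with its diamond at 11.9%, and the bars lie below their diamonds only where clones were summed and without KO clone 5.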

How the data were processed

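Ribosomal RNA-depleted total RNA of 9 HAP1 libraries was sequenced, per the labels' protocols, from strand-marking libraries that carry UMI adaptors, in paired reads of 100 bases (NovaSeq). STAR 2.5.2a, hg38, DESeq and DESeq2 1.22.2 are named in the submitters' processing notes. Not given in the sources used here are the strand setting of the counting, the annotation release and the use of the UMIs. The authors deposited raw counts per gene or repeat subfamily in 1 table, already without low rows (smallest row total 37), and, per the file headers, a table of log2 fold changes of KO over WT with p-values. A deposited table of normalized counts was not used.

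The deposited counts of 21003 genes and 1111 repeats were kept together. The filter of edgeR by genotype (minimum count 10) kept 17777 genes and 1052 repeats, TMM scaled the libraries, and the quasi-likelihood F test with 1 genotype term gave KO against WT. Contrasts between clones came from a second fit, with a term for each of the 4 groups. Benjamini-Hochberg adjustment of p-values covered all rows, with calls at adjusted p below 0.05. CPM are per 1000000 counts after TMM, ± is SD, and SE is that of the log2 difference. Ratios of low counts have exact conditional binomial intervals, which cover counting error only, since the reads are not shown to be independent molecules. Depth, at 16103754 to 34407309 counts a library, limits the members with few counts.

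The members and lists were chosen with earlier results of these data known. Values in every library were printed by rule for ZNF331 and every called member; ZNF841, ZNF160, ZNF845 and the 3 untested members were added after their values were seen. Called neighbours and cofactors were named by smallest p, while PPP2R1A, TRIM28 and SETDB1, which were not called, were named outside that rule.

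Same-numbered libraries deviated from their clone means together (correlations of 0.101 to 0.507 in all 12 comparisons, which mirror each other in clones of 2 libraries), so a replicate block was fitted as an alternative. Other alternatives were another scaling, other filters, robust dispersion, genes only, DESeq2, clones summed, limma voom with clone as a random effect, and leaving out each library and each clone.

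Positions and exon overlaps came from GENCODE 44 and upstream sequences from RefSeq (GRCh38.p14). Windows were aligned globally over 250 bases. Models were fitted with edgeR 4.0.16, DESeq2 1.42.0 and limma 3.58.1 in R 4.3.3. Tables and figures were made in Python 3.11.15 with pandas 2.3.3, numpy 2.4.6, scipy 1.17.1, Biopython 1.88 and matplotlib 3.10.9.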

Additional observations from a re-analysis of the deposited data

Results flagged for a closer look

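A library far from the others of its genotype was sought in each member, by the ratio of its gap to the range (Dixon's test at 95%). Among 58 tests 15 stood out, where chance would give about 1 in 20 groups if the tests were separate. They were not, since members share a locus and sequence, and all members share the scaling of a library. Each genotype also mixes clones, so that rate does not apply here. A flag can also come with a small difference, where the other libraries lie close together. The value of WT clone 1 replicate 1 was flagged as above those of the other 4 WT libraries in 11 members. It was 6.04 CPM for ZNF577 (others 3.16 to 3.92), 6.48 CPM for ZNF613 (4.02 to 4.64), 9.38 CPM for ZNF432 (6.84 to 7.46) and 9.56 CPM for ZNF841 (2.08 to 4.08). It was 24.9 CPM for ZNF616 (18.8 to 20.1), 36.3 CPM for ZNF808 (22.5 to 24.5), 33.9 CPM for ZNF611 (18.4 to 22.5) and 19.6 CPM for ZNF28 (11.6 to 13.6). It was 18.8 CPM for ZNF813 (16.9 to 17.4), 4.44 CPM for ZNF600 (0.186 to 1.33) and 6.17 CPM for ZNF347 (0.165 to 1.39). In the same library repeats took 14.03% of the counts, and the part of this in the values was not tested.

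Among the 4 KO libraries, KO clone 5 replicate 2 was flagged as below the others for ZNF432, at 7.63 CPM (others 8.28 to 8.3), and for ZNF616, at 15.5 CPM (19.7 to 20.5). KO clone 1 replicate 2 was flagged as above the others for ZNF836, at 5.54 CPM (4.36 to 4.47), and for ZNF578, at 0.0288 CPM from its single count, with 0 counts in the other 3.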

How the results depend on the processing

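Of 22 alternatives to KO against WT, 16 gave a number of members called lower within 1.5 times the 10 reported, which does not say that they were the same members. It was 1 with clones summed (4.17% of genes lower) or without KO clone 5 (7.5%), and 5 by limma voom with clone as a random effect (9.2%). It was 4 without WT clone 1 (10.8%) or without KO clone 1 (6.37%). Without single libraries it was 6 to 10 (9.26% to 12.1%), lowest without KO clone 5 replicate 2 (9.66%). The fits without a KO library or without WT clone 7 tested 29 members. Of the 10 reported, 4 were still called without KO clone 5 replicate 2 (with ZNF347 and ZNF578 added), 6 without KO clone 5 replicate 1 and 7 without KO clone 1 replicate 1 (each with ZNF347, ZNF578 and ZNF600 added), and 8 without KO clone 1 replicate 2. Without WT clone 7, 12 were called, 8 of the 10 plus those 3 and ZNF665. Members called higher were 1 by limma voom (8.81% of genes higher) and 2 without WT clone 1 (10.3%). Without single libraries they were 0 to 1, the 1 being ZNF841 without WT clone 1 replicate 1 (11.3%). Genes called in either direction numbered 4123 as reported, 1639 with clones summed, 2338 without KO clone 1, 2614 without KO clone 5, and 3206 to 4114 without single libraries. The median of members was -0.25 with no filter and by DESeq2. Both tested the 3 low members and called 13 members lower (10.5% of genes with no filter, 11.4% by DESeq2). The median was -0.26 without WT clone 7, -0.32 without KO clone 1, and -0.29 to 0.00 without single libraries. For KO clone 5 against KO clone 1, 0 to 1 members were called without single libraries, the 1 being without WT clone 1 replicate 1. For WT clone 7 against WT clone 1, 3 were called with the replicate block and 0 to 2 without single libraries, the 2 being without that same library. The shares of all genes called between clones under these alternatives are not given here. The replicate block lost ZNF611 in KO against WT (9 members lower, where 10.7% of genes were) and no other member's call there. Of 264 values of named members under the alternatives, 200 kept their direction and state, called or not, 60 lost the call, 4 gained one and none reversed. These values cover the 10 called members and also ZNF160 and ZNF841, which were not called as reported. ZNF160 and ZNF841 had no call to lose, so part of the 200 are kept non-calls and all 60 losses fell on the 10 called members. Except where fewer samples or other filters define the alternative, the cause was not tested. Depth limits ZNF347, ZNF578 and ZNF600, at 1 to 11 counts over all KO libraries.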
